A study of Homo sapiens with 18 samples.

Results

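The drug by dose interaction asks whether raising the dose from 10 to 20 µM changed a transcript differently with genistein than with baicalein in LNCaP cells. It is the genistein dose step (20 minus 10 µM, on the log2 scale) minus the baicalein dose step. Written the other way round, it is the difference between the compounds at 20 µM minus their difference at 10 µM. It was fitted on the 12 treated LNCaP libraries of the 18 in the series, and 16542 of the 63241 genes in the table had enough counts to be tested. The 4 groups, with 3 libraries each, were LNCaP given genistein at 10 µM, genistein at 20 µM, baicalein at 10 µM and baicalein at 20 µM, all for 24 h. The labels give every library the genotype wild type and the cell type prostate cancer cell, and all cells grew in RPMI-1640 with serum. Levels of 3 further LNCaP libraries without either compound are quoted as a reference in places and entered no test. The labels call those 3 untreated, while the treatment protocol describes DMSO vehicle. From its title, the study examined both compounds as radiosensitizers for a radioligand of prostate-specific membrane antigen (PSMA).

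LNCaP is a prostate cancer line that depends on the androgen receptor and carries PSMA, the product of FOLH1, on its surface. Genistein is an isoflavone known as a tyrosine kinase inhibitor and a weak ligand of oestrogen receptors. Baicalein is a flavone known as a lipoxygenase inhibitor. Both have the same molecular formula and differ in the carbon of the core to which the phenyl ring is attached and in the positions of their hydroxyl groups. A gene with an interaction near 0 moved by the same factor with both compounds as the dose rose. A positive value means that the genistein step lay above the baicalein step, either because the gene gained more with genistein or because it lost more with baicalein.

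Total counts of the 12 libraries ran from 10551965 to 16475824. The 12 LNCaP identity markers on a fixed list all had counts in every group. Mitochondrially encoded genes took 10.5 to 14.5% of the counts with baicalein 20 µM and 4.94 to 6.35% in the other 3 groups. Since the labels name no separate cultures, every p-value here is read against library-to-library scatter, and that scatter could be technical alone. A gene was called at an adjusted p under 0.05 from the quasi-likelihood F test of edgeR. Levels are given as CPM, the gene count relative to the scaled library total, and log2 differences carry their standard error.

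The interaction was called for 5027 genes, which is 30.4% of those tested. It was above 0 for 2616 of them (15.8%) and below 0 for 2411 (14.6%). The median over all 16542 genes was 0.05, and the median size among called genes was 1.23 on the log2 scale. A size above 1 was reached by 3197 called genes and a size above 2 by 995. At the other end, the 95% interval lay within 2-fold in both directions for 4876 genes (29.5%), so that for these a larger difference between the dose steps was not seen.

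Most called interactions had their larger step with baicalein. This held for 4608 of the 5027 genes (91.7%), while the genistein step was the larger for 419 (8.33%). Taken alone, the baicalein step was called for 8702 genes (52.6%), of which 4307 rose (26%) and 4395 fell (26.6%). The genistein step was called for 1717 genes (10.4%), of which 717 rose (4.33%) and 1000 fell (6.05%). Leaving out 1 library at a time moved the genistein count between 687, without the third genistein 20 µM library, and 2316. The SD of the step over all genes was 1.32 for baicalein and 0.66 for genistein. The steps correlated across genes with a Pearson r of 0.45 and a Spearman rho of 0.42. This is a description over 16542 genes that are not independent, of steps that have no library in common.

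Among the 2616 genes with a positive interaction, 2108 (80.6%) fell with baicalein and had no called genistein step. A further 303 fell with both compounds and lost more with baicalein, 58 rose with genistein alone, and 48 rose with genistein and fell with baicalein. Of the remaining positive ones, 8 rose with both and 91 had neither step called. Among the 2411 genes with a negative interaction, 1885 (78.2%) rose with baicalein and had no called genistein step. Another 207 rose with both compounds and gained more with baicalein, 128 fell with genistein alone, and 90 fell with genistein and rose with baicalein. In this class 2 genes fell with both, and neither step was called for 99.

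**Figure D1:**
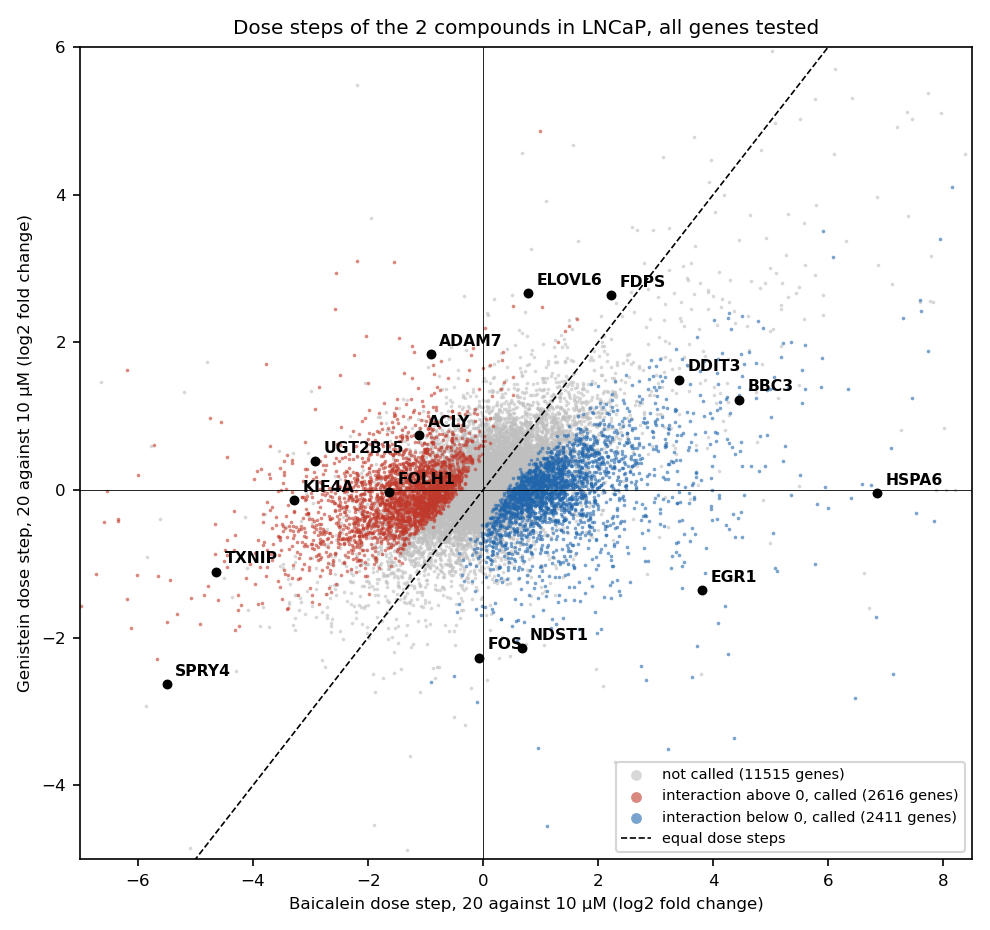
Dose step of baicalein (x axis, log2 fold change of 20 against 10 µM) against that of genistein (y axis) for all genes tested. Each dot is a gene, coloured where its interaction was called, and 19 genes lie outside the axes. The 2616 red genes lie above the dashed line of equal steps and the 2411 blue genes below it, and both clouds are wider along the baicalein axis.

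At matched doses, the compounds were compared in 2 contrasts over the same 16542 genes. At 10 µM no gene was called by edgeR (0 of 16542, 0%), while 1015 had an unadjusted p under 0.05 and the Wald test of DESeq2 called 31. The interval of the 10 µM difference lay within 2-fold for 11344 genes (68.6%). For the remaining genes these libraries do not bound the difference at 10 µM to 2-fold. At 20 µM 7728 genes differed (46.7%), 3999 higher with genistein (24.2%) and 3729 lower (22.5%). Of the 5027 genes with a called interaction, 4833 also differed at 20 µM. The median size of the difference was 0.19 at 10 µM and 0.58 at 20 µM on the log2 scale. These contrasts share their libraries with the interaction and are therefore no separate evidence for it.

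FOLH1 (ENSG00000086205, chr11:49145092-49208638, minus strand, GRCh38) encodes PSMA, the target of the radioligand. Its genistein libraries held 940.0, 936 and 986 CPM at 10 µM and 902, 967 and 939 CPM at 20 µM. The baicalein libraries held 959.9, 1032 and 1020.5 CPM at 10 µM and 343, 311 and 320.2 CPM at 20 µM. All libraries of 3 groups lay between 902 and 1032 CPM, and the 3 with baicalein 20 µM lay apart between 311 and 343 CPM. The interaction of FOLH1 was 1.60 ± 0.13 on the log2 scale (95% interval 1.31 to 1.89, adjusted p = 2.48e-05), since it fell 3.09-fold with baicalein (-1.63 ± 0.09) and had no called genistein step (-0.03 ± 0.09). At 10 µM the compounds did not differ by test (-0.07, interval -0.27 to 0.13, adjusted p = 0.808). Reads of the near-identical copy FOLH1B may be counted with it. In these bulk libraries, fewer cells of a type and less RNA per cell cannot be told apart.

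Genes that the androgen receptor induces had positive interactions. On the list of such genes, 17 of 25 tested were called above 0 and 0 below, against 15.8% and 14.6% of all genes, with a median of 1.43 against 0.05. The baicalein step was called downward for 21 of them and the genistein step for 6, against 26.6% and 6.05% of all genes. KLK3, which encodes prostate-specific antigen, held 897, 1280.4 and 1151 CPM at 10 µM and 743, 708 and 710.4 CPM at 20 µM in the genistein libraries. With baicalein it stood at 1117, 943 and 924 CPM at 10 µM and 152, 244 and 129 CPM at 20 µM. Levels overlapped at 10 µM and were lowest with baicalein 20 µM, with no overlap with any other group. Its interaction was 1.89 ± 0.31 on the log2 scale (95% interval 1.20 to 2.57, adjusted p = 0.00136). TMPRSS2, an androgen-induced protease, fell with both compounds, by 1.63-fold with genistein and 4.38-fold with baicalein, and its interaction was 1.43 ± 0.18 on the log2 scale (95% interval 1.03 to 1.82, adjusted p = 0.000288). The co-chaperone FKBP5 (1.30, adjusted p = 0.000271), the transporter SLC45A3 (2.81, adjusted p = 1.77e-05) and the acid phosphatase ACP3 (2.02, adjusted p = 1.96e-05) were called in the same direction.

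The androgen-repressed list also lay above 0. Of 8 members tested, 7 had a positive interaction and 1, CAMK2N1, a negative one (-0.46), with a median of 2.71. All 8 were called, against 30.4% of all genes. The CAMK2N1 call was lost with upper quartile scaling, no filter, a replicate block, a GC and length correction or a 1.5-fold minimum. It was also lost without baicalein 20 µM replicate 3, genistein 10 µM replicate 2 or 3, or genistein 20 µM replicate 2. Baicalein lowered 7 of the 8, so induced and repressed members moved the same way. UGT2B15 and UGT2B17 encode enzymes that glucuronidate androgens for excretion. UGT2B15 held 72.8, 74.8 and 77.9 CPM at 10 µM and 90.0, 106 and 99.6 CPM at 20 µM with genistein. Its baicalein libraries held 85.3, 106 and 97 CPM at 10 µM and 13, 12.7 and 12.1 CPM at 20 µM, the 3 at 20 µM being far below all others. It rose 1.31-fold with genistein and fell 7.6-fold with baicalein, and its interaction of 3.31 ± 0.16 on the log2 scale (95% interval 2.96 to 3.66, adjusted p = 1.03e-06) had one of the smallest adjusted p-values among the genes named. UGT2B17 followed with 2.95, adjusted p = 1.03e-06 and UGT2B11 with 3.73, adjusted p = 0.000454. Reads could be shared among these near-identical UGT2B genes. On the list of UGT2B and other steroid enzymes, 7 of 11 were called above 0 and 0 below (median 1.28). The called share was 63.6%, against 30.4% of all genes.

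Markers of LNCaP identity were called above 0 for 7 of 12 and below for 0, against 15.8% and 14.6% of all genes. Their median was 1.26. FOLH1, KLK3, TMPRSS2 and SLC45A3, described above, are among these 12, so the list is not separate from those results. HOXB13, a homeobox factor of the prostate, fell 1.62-fold with genistein and 7.01-fold with baicalein (interaction 2.12, adjusted p = 6.97e-05). The keratins KRT8 (0.08, adjusted p = 0.804) and KRT18 (-0.29, adjusted p = 0.193) were not called. Summed over the 12 markers, levels were 3172 to 3449 CPM with genistein 20 µM, 1739 to 1780 CPM with baicalein 20 µM and 3631 to 4273 CPM in the 10 µM groups. Markers of PC-3, the other line of the series, summed to 22.0 to 24.5 CPM with genistein 20 µM and 31.8 to 35.1 CPM with baicalein 20 µM, and to 9.64 to 14.5 CPM at 10 µM. All 10 had counts in every group, 3 could be tested, and 0 were called in the interaction. Of 12 markers of fibroblasts, endothelium and blood, 4 could be tested, 0 were called, and their sum lay between 17.7 and 22.4 CPM in all 4 groups. The part of these shifts in other results was not tested.

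**Figure D2:**
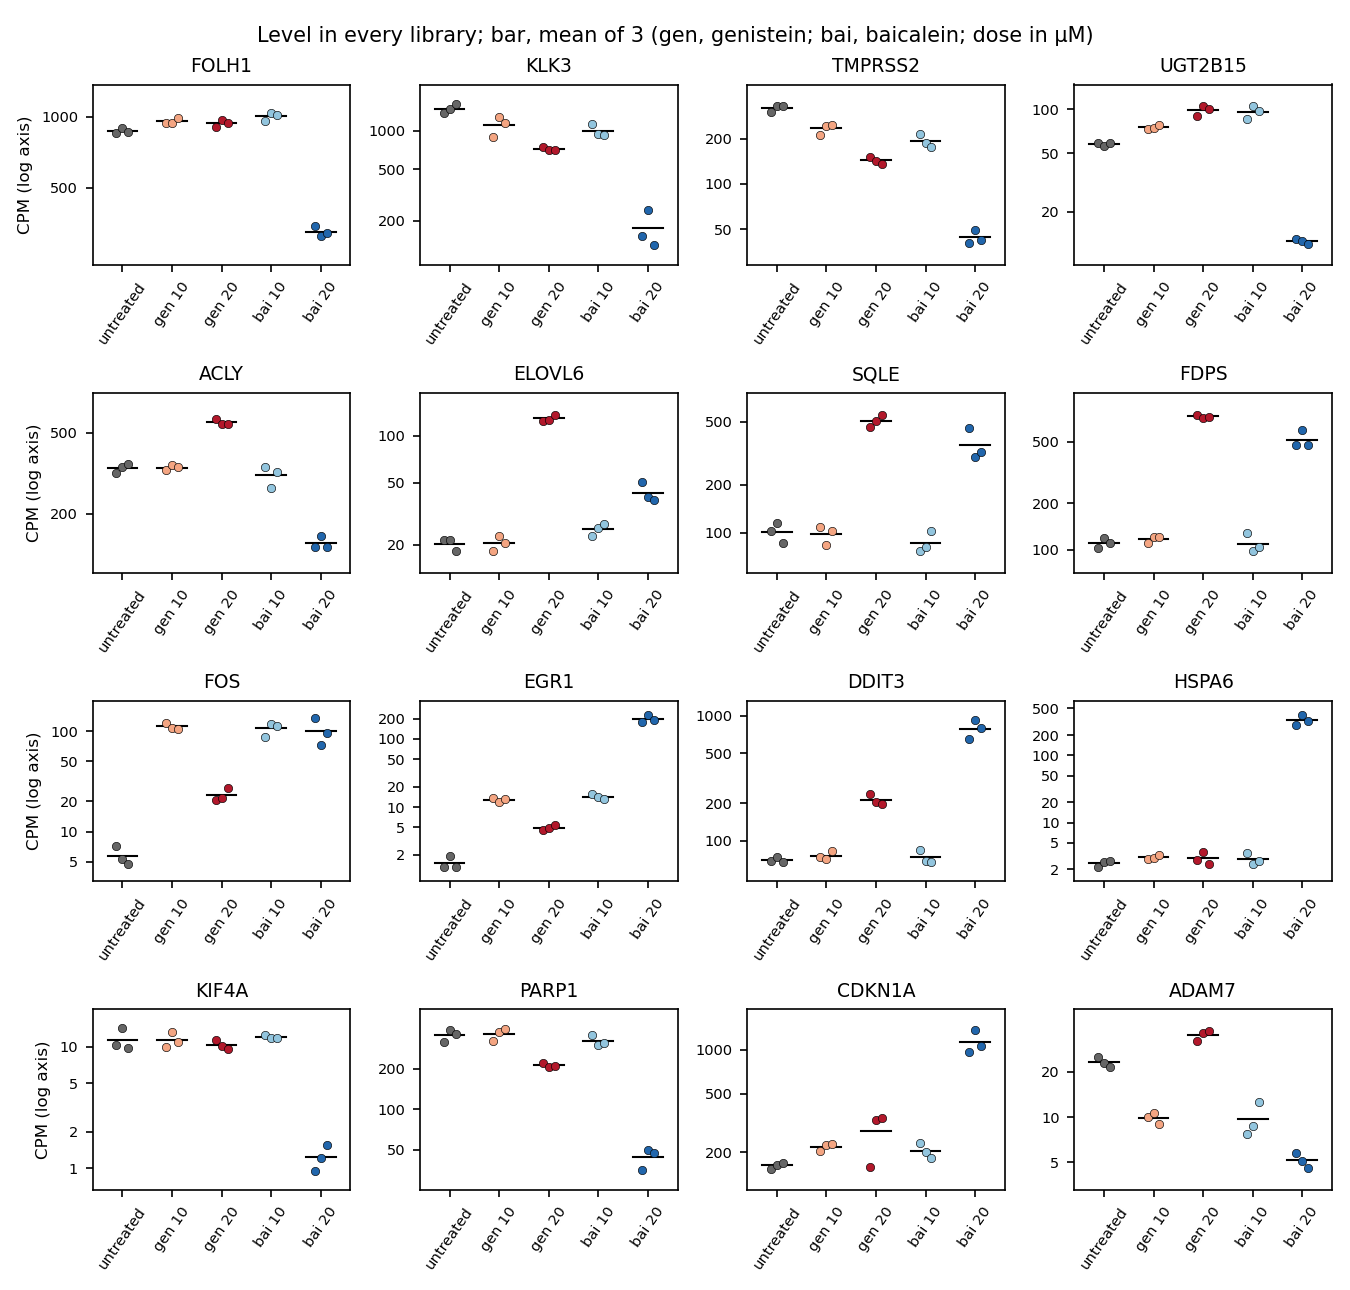
Level of 16 genes in scaled counts (CPM, log axes that differ between panels) in every LNCaP library by group, with 10 and 20 given in µM. Points are libraries, bars are means of 3, and the untreated libraries entered no test. For FOLH1, KLK3, TMPRSS2, UGT2B15, KIF4A and PARP1 the 3 baicalein 20 µM libraries lie below all others, and for EGR1, DDIT3 and HSPA6 above all others.

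Fatty acid genes were mostly called in the interaction, while most cholesterol genes were not. Sterol regulatory element binding proteins drive both sets of enzymes when sterols run low. Of 15 genes of fatty acid synthesis and desaturation, 11 were called above 0 and 0 below, with a median interaction of 1.23. The called share was 73.3%, against 30.4% of all genes. The median step of the list was 0.76 with genistein, with 8 risen and 1 fallen. With baicalein it was -0.45, with 2 risen and 7 fallen. ACLY, which makes cytosolic acetyl-CoA, held 326, 345 and 339 CPM at 10 µM and 585, 552 and 555 CPM at 20 µM with genistein and rose 1.68-fold. In the baicalein libraries it held 339, 268 and 322 CPM at 10 µM and 137, 156 and 138 CPM at 20 µM, a fall of 2.16-fold. Its levels overlapped at 10 µM and then parted in opposite directions, giving an interaction of 1.85 ± 0.16 on the log2 scale (95% interval 1.49 to 2.22, adjusted p = 4.21e-05).

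FADS2, a fatty acid desaturase, did the same: it rose 1.7-fold with genistein and fell 1.64-fold with baicalein (interaction 1.48, adjusted p = 0.000312). SCD, the stearoyl desaturase, also rose with genistein (0.84) and fell with baicalein (-0.39). ELOVL6, which elongates palmitate, rose with both compounds, from 18.2, 22.7 and 20.4 to 125, 128 and 137 CPM with genistein and from 22.7, 25.7 and 27 to 50.3, 40.4 and 38.7 CPM with baicalein. Each 20 µM library lay above every 10 µM one of its compound, and the genistein 20 µM libraries lay above all others. Its interaction was 1.89 ± 0.19 on the log2 scale (95% interval 1.48 to 2.30, adjusted p = 7.27e-05). ACACA, the first committed enzyme of the pathway, was not called with genistein (0.11) and fell with baicalein (-1.35), and FASN, the synthase, rose with genistein (0.80) with no called baicalein step (-0.07).

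Of 24 genes of cholesterol synthesis and uptake, 6 were called above 0 and 1 below, which is 29.2% of the list against 30.4% of all genes. Here both compounds moved the list in 1 direction: 19 genes rose with genistein and 17 with baicalein, 0 and 2 fell, and the median steps were 1.74 and 1.42. Over all genes, 4.33% rose with genistein and 26% with baicalein. FDPS, which makes farnesyl diphosphate, went from 110.0, 121 and 121 to 751, 718 and 722 CPM with genistein and from 128, 97.9 and 104 to 476, 597 and 474 CPM with baicalein. Both 20 µM groups stood above all 10 µM libraries, and genistein 20 µM above baicalein 20 µM. Its interaction was not called (0.41, interval -0.01 to 0.83, adjusted p = 0.131), nor were those of SQLE (0.31, interval -0.26 to 0.88) and MVD (-0.21, interval -0.66 to 0.24), whose intervals lay within 2-fold. LSS, the lanosterol-forming cyclase, rose 2.58-fold with genistein and had no called baicalein step (0.30, adjusted p = 0.116), with an interaction of 1.07 ± 0.21 on the log2 scale (95% interval 0.59 to 1.54, adjusted p = 0.0041). MVK, mevalonate kinase, was the member below 0 (-0.81, adjusted p = 0.00969), having risen more with baicalein.

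Genes of cholesterol export and liver X receptor targets were called above 0 for 2 of 11 and below for 4. The called share was 54.5%, against 30.4% of all genes. ABCG1, a sterol exporter, fell with genistein (-1.71, adjusted p = 0.0103) and rose with baicalein (0.86, adjusted p = 0.0365), giving -2.57 ± 0.46 on the log2 scale (95% interval -3.58 to -1.56, adjusted p = 0.00202). APOE, the apolipoprotein, was called below 0, but its baicalein 10 µM libraries were almost empty (0.0871, 0.171 and 0 CPM), and no size is given. LPCAT3, a phospholipid remodelling enzyme (1.30), and SCARB1, a lipoprotein receptor (0.83), were the members above 0.

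Immediate early genes, the transcription factors and feedback proteins switched on within minutes of a stimulus, had negative interactions. Of 20 tested, 18 were called below 0 and 0 above, against 14.6% and 15.8% of all genes, with a median of -2.27. The baicalein step was called upward for 17 of the 20, against 26% of all genes, while genistein gave 1 rise and 5 falls. EGR1 (ENSG00000120738, chr5:138465479-138469303, plus strand, GRCh38), a zinc finger factor, had the smallest adjusted p of the table. It held 13.4, 11.7 and 13.1 CPM at 10 µM and 4.6, 4.94 and 5.37 CPM at 20 µM in the genistein libraries. With baicalein it stood at 15.3, 14.2 and 13 CPM at 10 µM and 181, 224 and 193 CPM at 20 µM, against 1.33, 1.93 and 1.3 CPM in the untreated libraries. At 10 µM the compounds gave overlapping levels above the untreated ones, and from there EGR1 fell 2.56-fold with genistein and rose 14-fold with baicalein. The interaction was -5.17 ± 0.18 on the log2 scale (95% interval -5.56 to -4.77, adjusted p = 2.38e-07).

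FOS, a subunit of AP-1, showed another pattern with the same sign. Genistein libraries held 122, 108 and 106 CPM at 10 µM and 20.8, 21.6 and 27.2 CPM at 20 µM, and the untreated ones 7.22, 5.3 and 4.7 CPM. Baicalein libraries held 87.9, 118 and 114 CPM at 10 µM and 135, 73.2 and 95.9 CPM at 20 µM. All 12 treated libraries stood above the untreated ones. At both baicalein doses and at genistein 10 µM the levels overlapped, and the genistein 20 µM libraries lay below them, so the interaction of -2.20 ± 0.30 on the log2 scale (95% interval -2.87 to -1.53, adjusted p = 0.000481) came from the genistein step (-2.27, adjusted p = 0.000263) while the baicalein step was not called (-0.07, adjusted p = 0.796). FOSB, its paralog, was alike, with a genistein step of -2.52, adjusted p = 0.000916, a baicalein step of -0.51, adjusted p = 0.138 and an interaction of -2.01. CCN1, a secreted matricellular protein, fell with genistein (-1.06) and rose with baicalein (1.58), as did BTG2, an antiproliferative factor (-0.68 and 1.96). JUN (-3.13, adjusted p = 0.00918) and KLF6 (-3.02, adjusted p = 0.0446) were called below 0 with libraries of 1 group more than 3-fold apart, so their size is uncertain.

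Feedback genes of the MAPK pathway did not move as 1 set: 3 of 15 were called above 0 and 6 below. Together these are 60% of the list, against 30.4% of all genes. SPRY4, an inhibitor of receptor tyrosine kinase signalling, fell with both compounds, from 40.8, 41.7 and 46.5 to 7.84, 7.47 and 5.56 CPM with genistein and from 36.1, 30.4 and 34.9 to 0.665, 0.726 and 0.828 CPM with baicalein. Neither pair of doses overlapped, and baicalein 20 µM was the lowest group. Its interaction was 2.87 ± 0.24 on the log2 scale (95% interval 2.35 to 3.39, adjusted p = 2.53e-05). DUSP5, a phosphatase of ERK, rose with both and more with baicalein (1.77 and 4.08, interaction -2.31, adjusted p = 0.000806). CCND1, cyclin D1, fell with both and more with baicalein (interaction 1.44, adjusted p = 0.000369). SPRED3, a Sprouty-related inhibitor, fell with genistein (-1.08) and rose with baicalein (0.81).

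**Figure D3:**
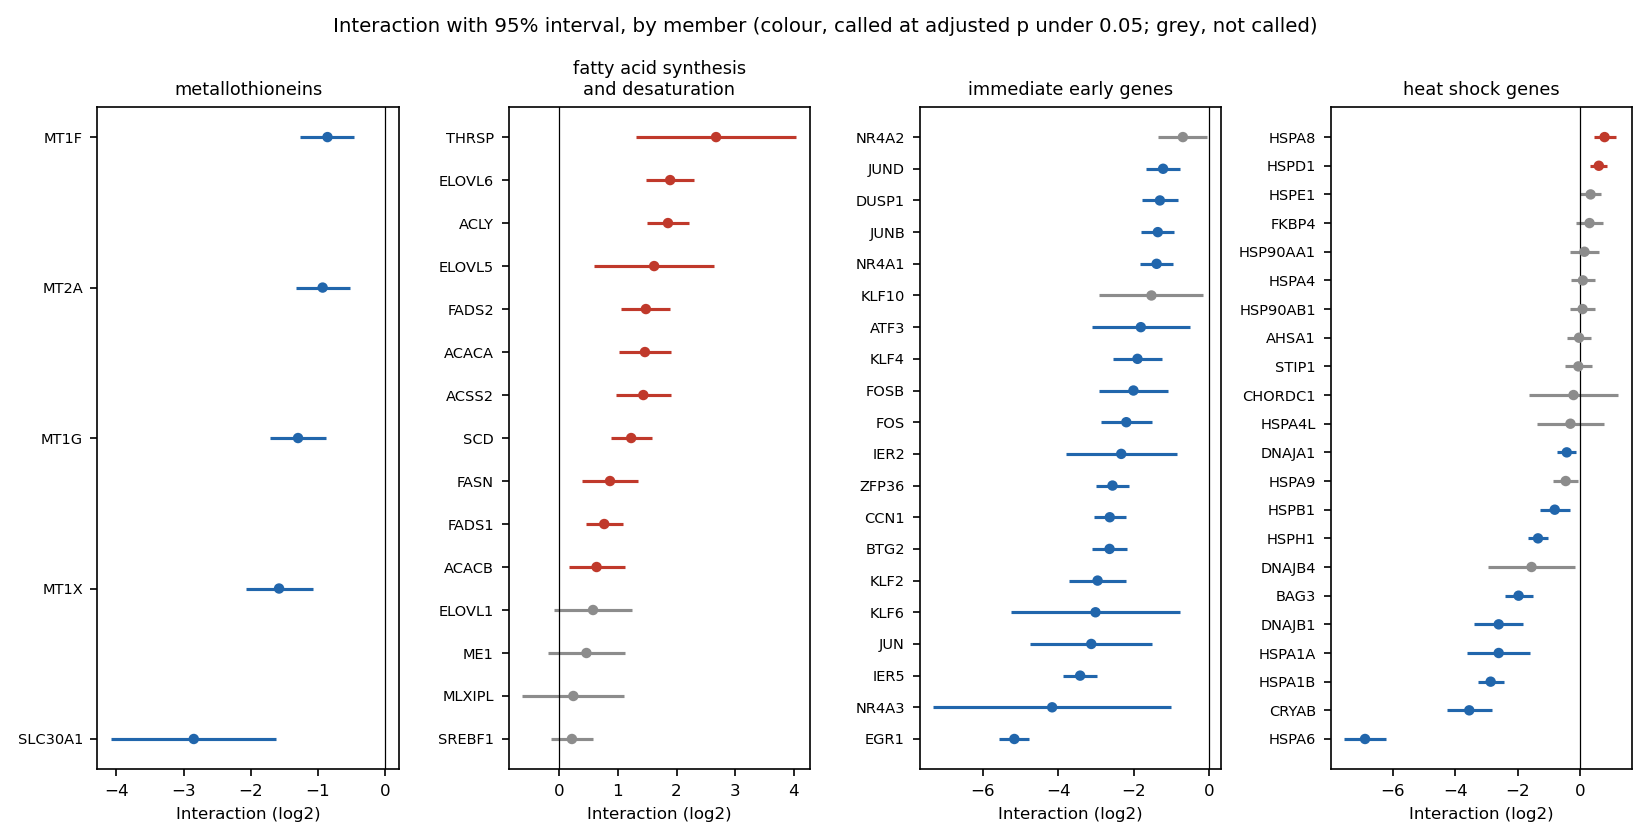
Interaction (x axis, log2 scale, genistein step minus baicalein step) of each tested member of 4 gene lists (metallothioneins, fatty acid, immediate early and heat shock genes). Points are estimates and lines their 95% intervals, coloured where called. The 11 called fatty acid genes all lie above 0 and the 18 called immediate early genes all below, while called heat shock genes lie on both sides.

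Several stress response lists held called genes on both sides of 0. ATF4 is the transcription factor of the integrated stress response, which raises amino acid supply genes and, under lasting stress, death-related ones. Of 33 genes of the ATF4 amino acid response, 9 were called above 0 and 7 below, with a median of 0.32. Called members made up 48.5% of the list, against 30.4% of all genes. The 9 became 4 without the second library of either 10 µM group, and 5 without genistein 10 µM replicate 3. When a difference over 1.5-fold was required, 3 above 0 and 6 below stayed called. DDIT3, also called CHOP, rose with both compounds, from 74.3, 71.3 and 82.3 to 238, 206 and 199 CPM with genistein and from 84.1, 69.2 and 68.3 to 648, 922 and 792 CPM with baicalein. The 20 µM groups did not overlap with each other or with either 10 µM group. Its interaction was -1.92 ± 0.22 on the log2 scale (95% interval -2.40 to -1.44, adjusted p = 0.000157). SESN2, a stress sensor that restrains growth signalling (-2.40, adjusted p = 3.64e-05), PPP1R15A, the phosphatase subunit that reverses the translational block (-2.46, adjusted p = 0.00136), and the bZIP factor CEBPB (-1.86, adjusted p = 0.000177) lay on the same side.

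Several amino acid supply genes of that list lay on the other side. AARS1, alanyl-tRNA synthetase, held 415, 425 and 419 CPM at 10 µM and 466, 425 and 418 CPM at 20 µM with genistein. With baicalein it held 431, 367 and 365 CPM at 10 µM and 131, 159 and 138 CPM at 20 µM, the 20 µM libraries being below all others. Its interaction was 1.5 ± 0.16 on the log2 scale (95% interval 1.14 to 1.86, adjusted p = 0.000135) after a 2.72-fold fall with baicalein and no called genistein step. PSPH (1.44, adjusted p = 0.000576) and PHGDH (0.96, adjusted p = 0.00443), enzymes of serine synthesis, PCK2 (1.32, adjusted p = 0.00125), the mitochondrial carboxykinase, and ASNS (0.79, adjusted p = 0.046), asparagine synthetase, were also above 0. SLC3A2, the shared chain of several amino acid transporters, was below (-1.54, adjusted p = 0.00013). The tRNA synthetases GARS1 (-0.16, adjusted p = 0.488) and CARS1 (-0.51, adjusted p = 0.0715) were not called. The sensor TRIB3 (-0.49, adjusted p = 0.104) and ATF4 itself (-0.23, adjusted p = 0.404) rose with both compounds, and their interactions were not called.

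Promoter letters of 2 of these genes are printed because both hold the same short element while their interactions had opposite signs. The window is RefSeq's GRCh38.p14 sequence from 250 bases before to 50 after the gene start, printed on the gene's strand, 5′ to 3′. Capitals mark TGATGNAA, a composite ATF and CEBP element, on either strand. The windows are chr11:62881449-62881748 on the plus strand for SLC3A2 and chr16:70289457-70289756 on the minus strand for AARS1.
SLC3A2: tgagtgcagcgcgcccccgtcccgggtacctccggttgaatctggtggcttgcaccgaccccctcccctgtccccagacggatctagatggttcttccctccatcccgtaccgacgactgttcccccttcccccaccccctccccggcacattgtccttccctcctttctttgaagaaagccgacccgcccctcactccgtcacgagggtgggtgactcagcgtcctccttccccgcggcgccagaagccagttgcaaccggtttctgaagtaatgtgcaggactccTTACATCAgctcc
AARS1: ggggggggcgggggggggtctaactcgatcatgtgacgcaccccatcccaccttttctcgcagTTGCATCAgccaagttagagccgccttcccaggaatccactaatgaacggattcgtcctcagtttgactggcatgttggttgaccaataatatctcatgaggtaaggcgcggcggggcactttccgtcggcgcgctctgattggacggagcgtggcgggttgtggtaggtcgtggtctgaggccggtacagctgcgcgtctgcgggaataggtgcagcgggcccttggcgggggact
The element was in 8 of the 27 list genes with a window and in 4.46% of all 27305 genes with one. Of those 8, ASNS and AARS1 were called above 0, SLC3A2 below 0, and the other 5 were not called. A match describes letters only and says nothing about binding.

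Genes of the endoplasmic reticulum unfolded protein response were called above 0 for 1 of 22 and below for 4, which is 22.7% of the list against 30.4% of all genes. Their median of 0.01 changed sign in 9 alternative settings. Over 21 settings the count above 0 ranged from 0 to 4, being 0 in most, and the count below from 1 to 7. HSPA5, the chaperone BiP, was among those below (-0.53, adjusted p = 0.0463). NRF2 antioxidant targets were called above 0 for 2 of 21 and below for 2, a share of 19.0%. Without baicalein 20 µM replicate 2, 6 were called above 0, and without the third library of either 10 µM group 1 was. HMOX1, haem oxygenase, rose 2.16-fold with genistein and 5.66-fold with baicalein, with an interaction of -1.39 ± 0.23 on the log2 scale (95% interval -1.89 to -0.89, adjusted p = 0.00124). Other NRF2 targets such as NQO1 (0.04, interval -0.29 to 0.38) and GCLM (-0.76, interval -1.90 to 0.38) were not called.

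Metallothioneins bind zinc and other metals, and the 5 tested members of their list are 4 of them and the zinc exporter SLC30A1. All 5 were called below 0, against 14.6% of all genes, with a median of -1.30. The 5 rose with both compounds where called, 4 with genistein and 5 with baicalein. MT1X held 59.3, 65.5 and 70.8 CPM at 10 µM and 176, 176 and 162 CPM at 20 µM with genistein. It held 83.1, 64.4 and 60.5 CPM at 10 µM and 499.7, 656 and 478 CPM at 20 µM with baicalein, the highest of the 4 groups with no overlap. Its interaction was -1.58 ± 0.23 on the log2 scale (95% interval -2.08 to -1.08, adjusted p = 0.000609). MT2A had -0.93, adjusted p = 0.00357, and its call was lost when a difference over 1.5-fold was required. Reads may be shared between these near-identical genes.

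Heat shock genes were called above 0 for 2 of 22 and below for 9, a share of 50% against 30.4% of all genes. HSPA6 (ENSG00000173110, chr1:161524540-161526894, plus strand, GRCh38), a stress-induced HSP70, had one of the largest differences of the table. Its genistein libraries held 2.86, 2.93 and 3.31 CPM at 10 µM and 2.81, 3.6 and 2.39 CPM at 20 µM. Its baicalein libraries held 3.57, 2.39 and 2.71 CPM at 10 µM and 279, 397 and 325 CPM at 20 µM. The 9 libraries of 3 groups lay between 2.39 and 3.60 CPM, and the 3 with baicalein 20 µM lay at 279 CPM or higher. The interaction was -6.89 ± 0.30 on the log2 scale (95% interval -7.56 to -6.23, adjusted p = 7.92e-07). HSPA1B (-2.87, adjusted p = 7.78e-06), the small heat shock protein CRYAB (-3.56, adjusted p = 4.88e-05), the co-chaperone DNAJB1 (-2.61, adjusted p = 0.000454) and BAG3 (-1.98, adjusted p = 9.32e-05) followed, each with a called baicalein rise and no called genistein step. HSPA8, the constitutive HSP70 (0.78, adjusted p = 0.00441), and HSPD1, the mitochondrial chaperonin (0.59, adjusted p = 0.00493), had positive interactions after falling with baicalein, and HSP90AA1 (0.13, interval -0.34 to 0.60) and HSP90AB1 (0.07, interval -0.32 to 0.47) were not called.

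HSPA6 and HSPA8 are shown because they hold the same heat shock element and have opposite signs. Capitals mark 3 alternating units of a heat shock element, either TTC, GAA and TTC or GAA, TTC and GAA, with any 2 bases between neighbouring units, searched on both strands of the same windows. These are chr1:161524290-161524589 on the plus strand for HSPA6 and chr11:123062087-123062386 on the minus strand for HSPA8.
HSPA6: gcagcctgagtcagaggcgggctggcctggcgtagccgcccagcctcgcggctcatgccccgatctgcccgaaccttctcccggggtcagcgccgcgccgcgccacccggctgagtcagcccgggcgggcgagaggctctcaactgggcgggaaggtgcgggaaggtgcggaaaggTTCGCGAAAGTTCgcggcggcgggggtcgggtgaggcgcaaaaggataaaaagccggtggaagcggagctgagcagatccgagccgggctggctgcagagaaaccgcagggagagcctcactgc
HSPA8: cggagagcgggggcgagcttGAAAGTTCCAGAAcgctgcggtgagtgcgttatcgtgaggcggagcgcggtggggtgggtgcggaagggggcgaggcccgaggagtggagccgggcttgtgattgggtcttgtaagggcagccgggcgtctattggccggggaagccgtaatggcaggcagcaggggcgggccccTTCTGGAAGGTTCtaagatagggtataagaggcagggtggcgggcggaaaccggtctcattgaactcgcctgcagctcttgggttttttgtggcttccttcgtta
HSPA6 has 1 match and HSPA8 has 2. The element was in 7 of the 20 list genes with a window and in 0.608% of all 27305 genes. Of those 7, HSPA8 and HSPD1 were called above 0, HSPA6 and DNAJA1 (-0.43) below 0, and 3 were not called. As above, a match describes the letters and nothing more.

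Targets of p53, which arrests the cycle and starts cell death after damage, were called below 0 for 11 of 24 and above for 1, with a median of -1.01. The called share was 50%, against 30.4% of all genes. Of these 24, baicalein raised 17 and genistein 1, against 26% and 4.33% of all genes. BBC3, which encodes the death inducer PUMA, held 3.99, 5.64 and 4.44 CPM at 10 µM and 10.4, 10.3 and 12.2 CPM at 20 µM with genistein. It held 6.18, 4.01 and 4.51 CPM at 10 µM and 93.4, 129 and 100.4 CPM at 20 µM with baicalein. Both 20 µM groups lay above the 10 µM groups, and baicalein 20 µM lay highest with no overlap. The interaction was -3.23 ± 0.28 on the log2 scale (95% interval -3.85 to -2.62, adjusted p = 3.64e-05). CDKN1A, the cyclin-dependent kinase inhibitor p21, went from 203, 225 and 225 to 157, 330.3 and 344 CPM with genistein and from 232, 201 and 181 to 961, 1357 and 1067 CPM with baicalein. Its first genistein 20 µM library lay below all 10 µM libraries and the other two above all of them, and the interaction was -2.12 ± 0.37 on the log2 scale (95% interval -2.92 to -1.31, adjusted p = 0.00179). TNFRSF10B, a death receptor (-2.21, adjusted p = 2.01e-05), AEN, an exonuclease of apoptosis (-2.96, adjusted p = 8.81e-06), and GADD45A (-1.59, adjusted p = 0.0016) lay below 0. MDM2 (-0.97, interval -1.85 to -0.09) and GDF15 (0.03, interval -0.63 to 0.69) were not called. TP53INP1 was the member above 0 (1.27, adjusted p = 0.0386). That call was lost with no filter, a replicate block or a 1.5-fold minimum. It was also lost when replicate 2 or 3 of any of the 4 groups was left out.

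Of 17 regulators of the BCL2 family, which decide whether mitochondria release their death signals, 1 was called above 0 and 4 below, which is 29.4% of the list against 30.4% of all genes. BAX, an effector of that step, had an interaction of -0.85, HRK of -1.23 and BIK of -1.02, and BOK was the member above (0.78). BCL2 (-0.09, interval -1.16 to 0.97) and BCL2L1 (0.09, interval -0.61 to 0.80) were not called. When a difference over 1.5-fold was required, 0 members above and 2 below stayed called. Those 2 were HRK and BBC3, and BAX, BIK and BOK were not among them. The call above 0 was also lost without any of 6 libraries (baicalein 10 µM 1, baicalein 20 µM 3, genistein 10 µM 1, 2 or 3, or genistein 20 µM 1).

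Genes of the cell division cycle had positive interactions. On the mitosis list 28 of 42 were called above 0 and 0 below, against 15.8% and 14.6% of all genes. The list median was 1.45. Baicalein lowered 32 of the 42 and raised 2, while genistein lowered 1 and raised 0. Over all genes, 26.6% fell with baicalein and 6.05% with genistein. KIF4A, a chromosome-bound kinesin, held 9.94, 13.2 and 11.1 CPM at 10 µM and 11.3, 10.2 and 9.57 CPM at 20 µM with genistein. It held 12.6, 11.9 and 11.9 CPM at 10 µM and 0.949, 1.21 and 1.55 CPM at 20 µM with baicalein, with the 20 µM libraries far below the rest. The interaction was 3.15 ± 0.24 on the log2 scale (95% interval 2.61 to 3.69, adjusted p = 1.93e-05). TPX2, a spindle assembly factor (2.30, adjusted p = 2.87e-05), BUB1B, a checkpoint kinase (2.89, adjusted p = 3.71e-05), MKI67, the Ki-67 antigen (2.04, adjusted p = 0.000354), and the kinase CDK1 (2.39, adjusted p = 0.00562) were called in the same direction. CCNA2 (0.48, interval -0.35 to 1.30), PLK4 (0.28, interval -0.66 to 1.22) and PRC1 (0.37, interval 0.02 to 0.72) were not called.

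DNA replication genes were called above 0 for 18 of 41 and below for 0, with a median of 0.70. The called share was 43.9%, against 30.4% of all genes. Here genistein also lowered 7, beside 29 with baicalein, where 6.05% and 26.6% of all genes fell. PRIM1, a primase subunit, fell 3.65-fold with baicalein and had no called genistein step (-0.28, adjusted p = 0.207), with an interaction of 1.59 ± 0.19 on the log2 scale (95% interval 1.16 to 2.02, adjusted p = 0.000247). RRM2, a ribonucleotide reductase subunit, fell with both and more with baicalein (-0.94 and -2.84, interaction 1.91, adjusted p = 0.00405). The clamp PCNA (0.55, interval -0.08 to 1.18) and thymidylate synthase TYMS (0.02, interval -0.77 to 0.81) were not called.

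Repair of double-strand breaks is of interest for a radiosensitizer. Of 33 genes of homologous recombination and the Fanconi pathway, 14 were called above 0 and 1 below, with a median of 1.00. Called members made up 45.5% of the list, against 30.4% of all genes. Genistein lowered 5 of the 33 and raised 1, and baicalein lowered 22 and raised 2. Over all genes, 6.05% fell with genistein and 26.6% with baicalein. UBE2T, the Fanconi ubiquitin conjugase, fell 3.59-fold with baicalein only, with an interaction of 1.79 ± 0.18 on the log2 scale (95% interval 1.40 to 2.18, adjusted p = 7.18e-05). BLM, a helicase (1.87, adjusted p = 0.0275), and BRCA1 (1.00, adjusted p = 0.00253) were called, while PALB2 (-0.09, interval -0.72 to 0.53) was not. RAD51C, a recombination factor, was the member below 0 (-0.87, adjusted p = 0.00978).

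End joining, excision and mismatch repair genes with checkpoint kinases were called above 0 for 9 of 36 and below for 4, which is 36.1% of the list against 30.4% of all genes. The 9 became 5 without genistein 10 µM replicate 2 or 3, and the 4 became 1 without genistein 20 µM replicate 2. Their median of 0.11 changed sign in 3 alternative settings. PARP1, the sensor of strand breaks that PARP inhibitors target, held 323, 376 and 394 CPM at 10 µM and 222, 208 and 209.7 CPM at 20 µM with genistein. It held 355, 301 and 312 CPM at 10 µM and 35.5, 49.6 and 47.2 CPM at 20 µM with baicalein. It fell 1.71-fold and 7.31-fold, the doses overlapped with neither compound, and the interaction was 2.10 ± 0.20 on the log2 scale (95% interval 1.64 to 2.55, adjusted p = 6.97e-05). PRKDC, the catalytic subunit of the end joining kinase (1.58, adjusted p = 0.0288), and XRCC5, which encodes Ku80 (1.12, adjusted p = 0.00133), were above 0. WEE1, a checkpoint kinase (-1.27, adjusted p = 0.0477), and RAD9A, part of the checkpoint clamp (-1.03, adjusted p = 0.00221), were below. Among 14 cyclins, cyclin-dependent kinases and their inhibitors, 2 were called above 0 and 2 below, a share of 28.6%.

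**Figure D4:**
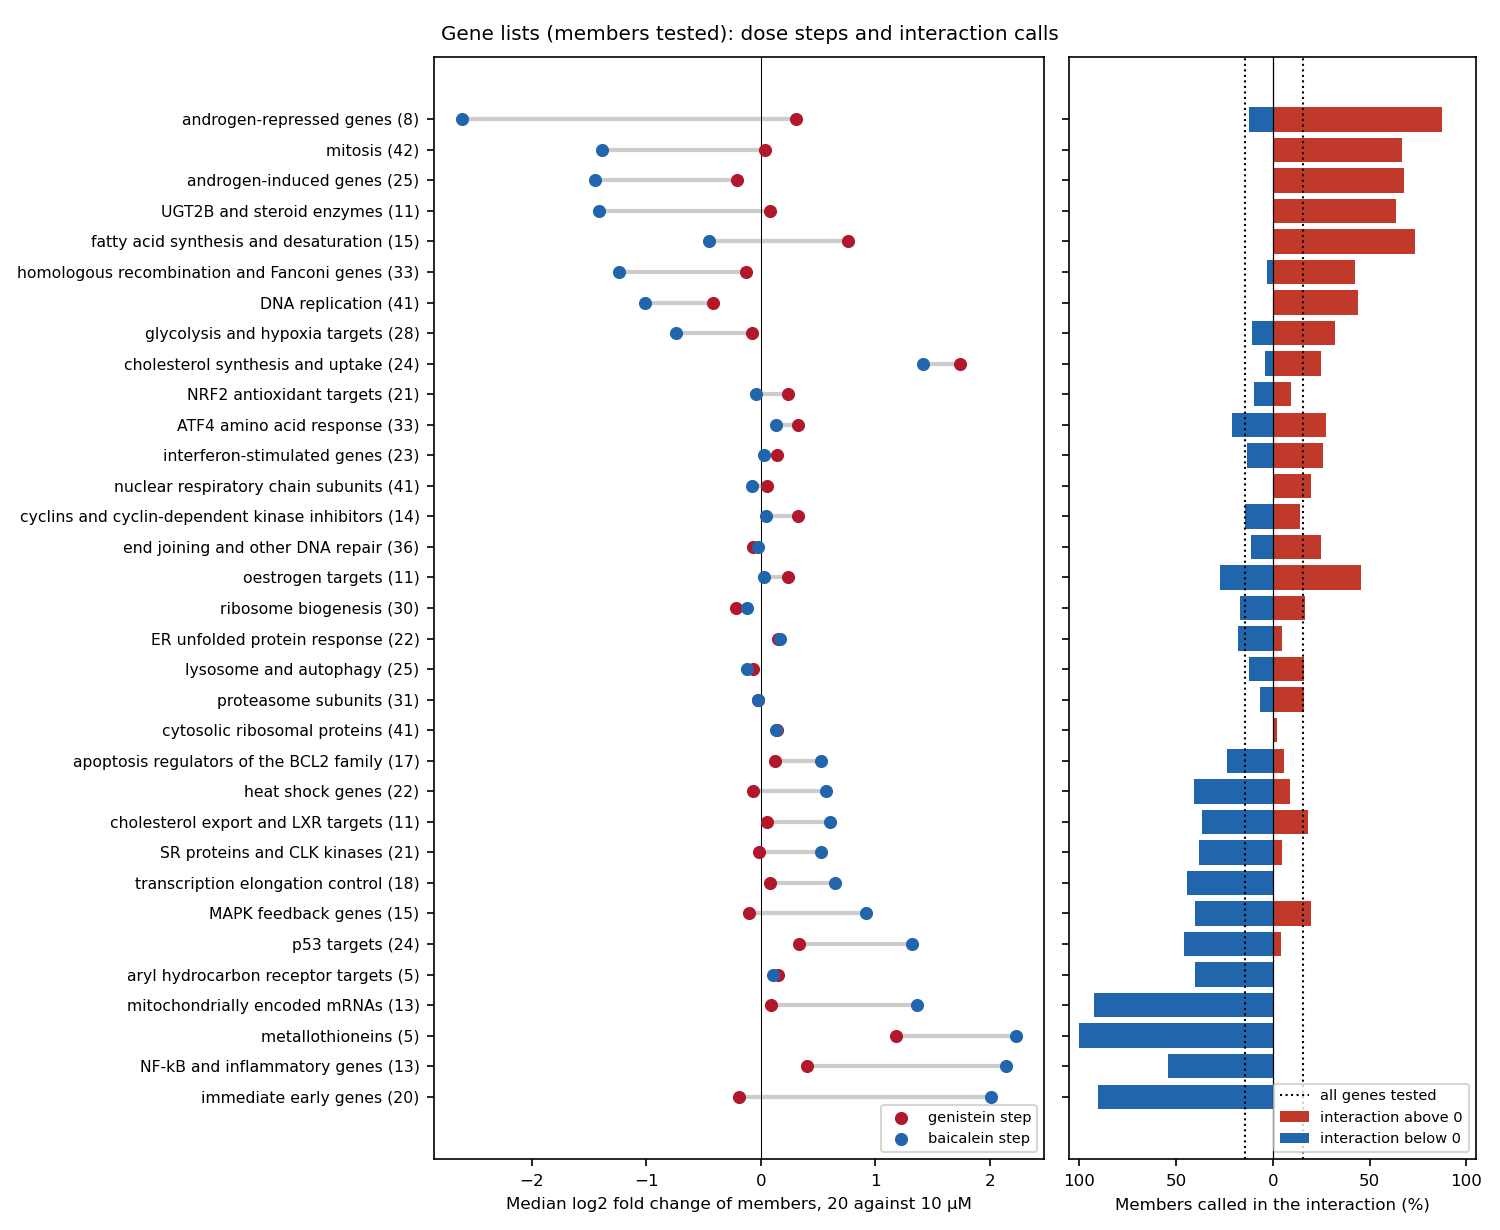
Left, median log2 fold change of 20 against 10 µM over the tested members of each gene list (number in brackets) for genistein and baicalein. Right, percent of members with a called interaction above 0 (red, to the right) or below 0 (blue, to the left), with dotted lines at 15.8% and 14.6% for all genes tested. Mitosis, androgen and fatty acid genes stand to the right, and immediate early genes, metallothioneins and mitochondrially encoded mRNAs to the left.

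Mitochondrially encoded mRNAs were called below 0 for 12 of 13 and above for 0, against 14.6% and 15.8% of all genes. Their median was -1.20. With baicalein 12 of them rose, and with genistein 0 were called. MT-ATP6, a subunit of the ATP synthase, held 477, 616 and 569.7 CPM at 10 µM and 629, 628 and 561 CPM at 20 µM with genistein. It held 555, 563 and 468 CPM at 10 µM and 6832, 7996 and 7187 CPM at 20 µM with baicalein. The 9 libraries of the other groups lay between 468 and 629 CPM and those of baicalein 20 µM between 6832 and 7996 CPM, with an interaction of -3.67 ± 0.18 on the log2 scale (95% interval -4.06 to -3.27, adjusted p = 1.24e-06). MT-ND6, the mRNA on the other strand, was not called (-0.13, interval -0.64 to 0.37). These mRNAs overlap or adjoin on the mitochondrial genome, so reads may be assigned to a neighbour. When the mitochondrially encoded genes were left out before scaling, 5020 interactions were called, 2534 above 0 and 2486 below.

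Nuclear genes of the respiratory chain were called above 0 for 8 of 41 and below for 0. That is 19.5% of the list against 30.4% of all genes, and the median was 0.13 against 0.05. The 8 became 5 when any of 6 libraries (baicalein 10 µM 1 or 2, genistein 10 µM 1, 2 or 3, or genistein 20 µM 1) was left out. ATP5F1A (1.23, adjusted p = 0.0332) and ATP5F1B (1.00, adjusted p = 0.0136), subunits of the ATP synthase, were among those called. Glycolysis and hypoxia genes were called above 0 for 9 of 28 and below for 3, a share of 42.9%. LDHA, lactate dehydrogenase, fell with baicalein (-1.81) and had an interaction of 1.27, adjusted p = 0.00384, as did PGK1, a kinase of glycolysis (1.02, adjusted p = 0.000827). VEGFA, the hypoxia-induced growth factor, was below 0 (-1.11, adjusted p = 0.00269). Cytosolic ribosomal protein genes were called for 1 of 41, RPL3 (0.57, adjusted p = 0.0282), and that call was lost in 11 alternatives. Their median was -0.05, and its sign changed in 1 setting.

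Inflammatory genes under NF-kB were called below 0 for 7 of 13 and above for 0, a share of 53.8% against 30.4% of all genes. The list median of -2.21 moved to -1.46 without baicalein 20 µM replicate 2. TNFAIP3, a feedback inhibitor of NF-kB, held 2.71, 1.88 and 2.33 CPM at 10 µM and 3.92, 3.6 and 3.23 CPM at 20 µM with genistein. It held 1.39, 2.22 and 1.81 CPM at 10 µM and 37.8, 41.1 and 26.1 CPM at 20 µM with baicalein, the 20 µM libraries being above all others. The interaction was -3.63 ± 0.33 on the log2 scale (95% interval -4.35 to -2.91, adjusted p = 4.44e-05), with a called baicalein step and no called genistein step. RELB, a subunit of NF-kB, rose with both compounds (1.40 and 4.46) and had an interaction of -3.06, adjusted p = 5.79e-05. NFKBIA, the main inhibitor, was called too (-1.49, adjusted p = 0.000192), and NFKB1 was not (-0.20, interval -0.55 to 0.15). CXCL8, a chemokine, was listed at 0, 0 and 0.271 CPM with baicalein 10 µM and at 17.8, 17.8 and 21 CPM with baicalein 20 µM, so the size of its called interaction rests on near-empty libraries and is not given. Interferon-stimulated genes were called above 0 for 6 of 23 and below for 3, a share of 39.1% against 30.4% of all genes. The 6 became 1 without genistein 10 µM replicate 2 or genistein 20 µM replicate 1, 2 without genistein 10 µM replicate 3 or baicalein 10 µM replicate 2, and 3 without baicalein 10 µM replicate 1 or baicalein 20 µM replicate 3. Their transcription factors IRF1 (-2.26, adjusted p = 0.000234) and IRF7 (-1.09, adjusted p = 0.00562) lay below 0 and the effectors OAS1 (1.40, adjusted p = 0.0426) and OAS3 (1.08, adjusted p = 0.0193) above.

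Dose steps of opposite sign were called for 138 genes, 48 with genistein up and 90 with genistein down. ADAM7, a sperm-binding protein of the reproductive tract that androgen induces in LNCaP, held 9.94, 10.7 and 8.95 CPM at 10 µM and 31.9, 36.5 and 37.7 CPM at 20 µM with genistein. With baicalein it held 7.75, 8.7 and 12.6 CPM at 10 µM and 5.79, 5.08 and 4.55 CPM at 20 µM, against 25, 22.9 and 21.4 CPM untreated. The compounds overlapped at 10 µM, below the untreated libraries, and at 20 µM genistein lay above the untreated level and baicalein lowest of all. The interaction was 2.75 ± 0.26 on the log2 scale (95% interval 2.18 to 3.32, adjusted p = 5.53e-05). SLITRK6, a neuronal membrane protein, rose from 11.9, 9.68 and 9.33 to 27.6, 38 and 44.3 CPM with genistein and fell from 11.9, 20.1 and 20.8 to 4.94, 1.86 and 4.45 CPM with baicalein (interaction 4.07, adjusted p = 0.000203). TRIM2, a ubiquitin ligase, also rose with genistein (1.51, adjusted p = 0.0322) and fell with baicalein (-1.23, adjusted p = 0.0244).

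In the opposite arrangement, AMH, anti-Müllerian hormone, fell from 5.57, 8.46 and 7.22 to 4.6, 4.2 and 3.17 CPM with genistein and rose from 7.49, 5.97 and 7.04 to 25.3, 29.9 and 29.2 CPM with baicalein. Its 20 µM groups lay on either side of all 10 µM libraries (interaction -2.87, adjusted p = 5.38e-05). H4C5, a replication-dependent histone H4 gene (-3.81, adjusted p = 1.35e-05), SLC8A2, a sodium and calcium exchanger (-3.68, adjusted p = 8.35e-05), and NPIPB6 (-3.04, adjusted p = 6.06e-05) had the same order. Histone H4 and NPIP genes have near-identical copies, so their counts are uncertain.

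The genistein step alone was called in 186 genes with an interaction, 58 up and 128 down. NDST1, which sulfates heparan sulfate, had both steps called, the genistein one being the larger. It held 101, 103 and 105 CPM at 10 µM and 27.1, 19.6 and 23.2 CPM at 20 µM with genistein. It held 44.5, 25.5 and 31.6 CPM at 10 µM and 48, 63.3 and 50.1 CPM at 20 µM with baicalein, and 41.8, 51.6 and 41.9 CPM untreated. Genistein 10 µM was the highest group and genistein 20 µM the lowest apart from an overlap with baicalein 10 µM. Its interaction was -2.82 ± 0.28 on the log2 scale (95% interval -3.44 to -2.19, adjusted p = 8.09e-05), with a genistein fall of 4.43-fold and a baicalein rise of 1.59-fold. Its difference between the compounds at 10 µM was 3.04-fold, which was not called (adjusted p = 0.125).

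KRT75, a keratin, held 3.01, 2.49 and 3.16 CPM at 10 µM and 9.97, 8.81 and 8.35 CPM at 20 µM with genistein and 3.14, 2.05 and 2.53 CPM at 10 µM and 2.66, 3.07 and 1.97 CPM at 20 µM with baicalein. Only the genistein 20 µM libraries stood apart, above all others, with an interaction of 1.64 ± 0.30 on the log2 scale (95% interval 0.99 to 2.29, adjusted p = 0.0022). ADRB1, the beta-1 adrenergic receptor, rose 2.1-fold with genistein and had no called baicalein step (-0.54, adjusted p = 0.0816, interaction 1.62, adjusted p = 0.00422). CHAMP1, a kinetochore factor, fell 3-fold with genistein and had a baicalein step of 0.03, adjusted p = 0.941, with an interaction of -1.61, adjusted p = 0.0111 that was lost when all 15 LNCaP libraries entered the fit. IL18BP, a decoy for interleukin-18, fell 2.23-fold with genistein (interaction -1.41, adjusted p = 0.00454). CYP1A1, the main target of the aryl hydrocarbon receptor, fell with both compounds, but more with genistein (-2.60 against -0.91), giving -1.69 ± 0.44 on the log2 scale (95% interval -2.66 to -0.72, adjusted p = 0.0143). That call was lost when a difference over 1.5-fold was required.

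Among the largest interactions, several came from near-complete losses with baicalein. STUM, a membrane protein, went from 8.96, 11.3 and 12 to 5.03, 4.27 and 4.59 CPM with genistein and from 10.5, 8.36 and 10.2 to 0.0949, 0.323 and 0.207 CPM with baicalein. Both steps were called and neither pair of doses overlapped, and the interaction was 4.22 ± 0.36 on the log2 scale (95% interval 3.42 to 5.01, adjusted p = 3.10e-05). Its size is uncertain, since the baicalein 20 µM libraries were almost empty. RNF43, a ubiquitin ligase that dampens WNT signalling, was at 17.6, 17.4 and 15.2 CPM at 10 µM and 15.9, 7.21 and 18.3 CPM at 20 µM with genistein. The second genistein 20 µM library was lower than its partners. Its baicalein libraries held 17.9, 17.3 and 18.4 CPM at 10 µM and 1.14, 1.05 and 0.414 CPM at 20 µM, and the interaction was 4.05 ± 0.50 on the log2 scale (95% interval 2.95 to 5.14, adjusted p = 0.000263). KCNN2, a calcium-activated potassium channel, fell 1.82-fold with genistein and 25.3-fold with baicalein (interaction 3.80, adjusted p = 5.46e-05). GPER1, a membrane oestrogen receptor, fell with both as well (-1.82 and -4.92, interaction 3.11, adjusted p = 0.000151).

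TXNIP (chr1:145992435-145996579, minus strand, GRCh38), an inhibitor of thioredoxin and of glucose uptake, held 102, 113 and 114 CPM at 10 µM and 53.3, 49 and 50.9 CPM at 20 µM with genistein. It held 115, 112 and 115 CPM at 10 µM and 5.13, 4.28 and 4.35 CPM at 20 µM with baicalein. The 10 µM libraries of both compounds overlapped, and each 20 µM group lay below them, baicalein the lower by far. It fell 2.15-fold and 24.9-fold, and its interaction of 3.53 ± 0.15 on the log2 scale (95% interval 3.20 to 3.86, adjusted p = 7.92e-07) was among the 5 with the smallest adjusted p. TRIM49D1 was in that set too (3.67, adjusted p = 7.92e-07), with reads that its near-identical copy TRIM49D2 could share.

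Some large values rest on libraries that disagree. SLC7A2, a cationic amino acid transporter, held 17.8, 27.8 and 2.62 CPM in the baicalein 10 µM libraries, more than 3-fold apart, so the size of its interaction (4.63) is uncertain. For GEN1, a resolvase of recombination intermediates, baicalein 10 µM gave 5.23, 45.8 and 9.48 CPM (interaction 5.02). CCNT2, a cyclin of transcription elongation, held 417, 23.7 and 12.8 CPM with baicalein 20 µM, and its interaction of -5.78 moved to -2.77 without the first of these. Its call was lost in 6 alternatives, 4 of which left out 1 of the other libraries. The androgen-induced HERC3 and the claudin gene CLDN12 had such spreads as well. Over all called genes, 78 (1.55%) had libraries of a group more than 3-fold apart, against 1087 (6.57%) of all genes tested. GZMM also ranked among the largest, but its 10 µM libraries were almost empty, and no size is given.

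Dose steps shared by both compounds were also seen. Outside the called interactions, 314 genes rose with both compounds and 377 fell with both. FAM118A fell from 83.6, 85.1 and 92.1 to 33.8, 36.8 and 34.2 CPM with genistein and from 69.1, 66.2 and 65.5 to 20.0, 23.1 and 19.9 CPM with baicalein. The doses overlapped with neither compound, and its interaction was not called (0.36, interval 0.05 to 0.66), although leaving out the second baicalein 20 µM library brought it past the threshold. REG4, a secreted lectin, fell 3.34-fold with genistein and 2.87-fold with baicalein, with an interaction of -0.22, interval -0.85 to 0.41. A call that is missing here does not show that the compounds act alike.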

How the data were processed

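RNA was extracted from LNCaP cells and sequenced as poly(A) libraries, per the labels' protocols. The authors deposited raw counts per gene. Per the submitters' processing notes, reads went through a set of tools that included DESeq2 1.20.0, featureCounts 1.6.4, STAR 2.7.6a and fastp, and the build was GRCh38. The annotation release, strand setting and treatment of multimapping reads are not given in the sources used here, so overlapping, antisense and near-identical genes are uncertain. The 18 FPKM columns beside the counts were left out, as baicalein 20 µM stands in 6 of their headers and 10 µM in 0.

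The 12 treated libraries were fitted as 4 groups of 3 in edgeR 4.0.16 (R 4.3.3) with TMM factors, filterByExpr and the robust quasi-likelihood F test. The fit had 8 residual degrees of freedom, and the common biological coefficient of variation was 0.243. P-values were adjusted by Benjamini-Hochberg over all 16542 genes. Fold changes are edgeR's, and their 95% intervals use the moderated degrees of freedom. The interaction test was run first on simulated counts with the spread of these libraries. It recovered 7 of 100 genes changed 2-fold and 71 of 100 changed 4-fold, with 4 false calls in all. Far fewer genes were changed there than were called here, so recovery in these data may differ. No pair of libraries of a group agreed within sampling noise.

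The groups, 36 gene lists and named genes were chosen with earlier results of these data known. Most rules took protein-coding, called genes at 5 CPM or more in the highest group and without overlap between doses in the larger step. These gave the 12 largest interactions each way and up to 6 each way with opposite steps or with a genistein step alone. They also gave 3 each way with both steps called in the same direction, and the 5 smallest p-values. Shared steps without a called interaction, 3 each way, were protein-coding, at 5 CPM or more, with the interval within 2-fold. The 3 members of each list by smallest p and the 12 genes of interest passed no such filter. Other list members quoted were chosen after their values were seen, and some genes that the rule names are not reported here. Alternatives were other scalings, no filter, DESeq2 1.42.0, 15 libraries, a replicate block, a GC and length correction, a 1.5-fold minimum and each library left out.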

Additional observations from a re-analysis of the deposited data

Results flagged for a closer look

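Because the interaction itself tests whether the dose steps of both compounds differ, its counts are listed here as differences between groups under the same contrast: 2616 genes above 0 and 2411 below. Among genes with dose steps called in opposite directions, the 6 largest interactions each way are given here, and the report names further such genes. With genistein up and baicalein down, the interaction was 5.02 for GEN1, 4.63 for SLC7A2, 4.07 for SLITRK6, 3.31 for UGT2B15, 2.75 for ADAM7 and 2.75 for TRIM2. With genistein down and baicalein up, it was -5.17 for EGR1, -3.81 for H4C5, -3.68 for SLC8A2, -3.12 for ENSG00000282988, -3.04 for NPIPB6 and -2.87 for AMH. GEN1 and SLC7A2 had libraries of 1 group more than 3-fold apart.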

How the results depend on the processing

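No called gene changed the sign of its interaction in any setting tried, and 108 of the 144 called genes among the 160 named stayed called in all of them. Requiring a difference over 1.5-fold left 1149 interactions above 0 and 1125 below, 230 genistein steps, 4890 baicalein steps and 3688 differences at 20 µM. With the trend over GC content and length removed, 3643 interactions above 0 and 3040 below were called. In that setting 2974 genistein steps and 1 difference at 10 µM were called. At 10 µM 1 gene was called with no filter, 1 with all 15 LNCaP libraries and 31 with DESeq2. Leaving out each library in turn gave 1883 to 2865 interactions above 0 and 1958 to 2562 below, 687 to 2316 genistein steps, 7826 to 8851 baicalein steps, 0 to 3 differences at 10 µM and 6611 to 8137 at 20 µM. The genistein step fell furthest without genistein 20 µM replicates 3 (687) and 2 (706), and without genistein 10 µM replicates 3 (778), 2 (793) and 1 (964). The cause was not tested. The share of interactions above 0 ran from 47.5 to 55.5% over all settings.

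Replicate numbers did not pair the libraries: same-numbered ones correlated between -0.42 and 0.35 after removal of group means, 4 of 18 pairs exceeded 0.1, and 2 of 12 libraries correlated best with their own number. A replicate block gave 2153 interactions above 0 and 1997 below, 965 genistein steps, 8075 baicalein steps, 0 differences at 10 µM and 7010 at 20 µM. Among the genes named by rule and described, it ended the calls of CCNT2 and RPL3. Of the other list members quoted, at least TP53INP1, BOK and CAMK2N1 lost theirs.

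List counts moved as well. Over 21 settings, members called above 0 ranged from 2 to 10 for cholesterol genes, 7 to 13 for fatty acid genes, 3 to 14 for ATF4 genes, 0 to 9 for NRF2 targets, 11 to 21 for DNA replication, 8 to 16 for recombination genes, 4 to 10 for other repair genes, 1 to 6 for interferon-stimulated genes and for proteasome subunits, 5 to 16 for glycolysis and hypoxia genes and 2 to 13 for respiratory chain subunits. Members called below 0 ranged from 14 to 19 for immediate early genes and 7 to 11 for heat shock genes.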

Other observations

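SR proteins and CLK kinases, which control splicing, were called below 0 for 8 of 21 and above for 1, with a median of -0.54. Genes of transcription elongation control were called below 0 for 8 of 18 and above for 0 (median -0.56), and the 8 became 5 without baicalein 10 µM replicate 3 or genistein 20 µM replicate 2 or 3. Over all genes, 15.8% were called above 0 and 14.6% below. Ribosome biogenesis genes were called above 0 for 5 of 30 and below for 5, proteasome subunits for 5 and 2 of 31, and lysosome and autophagy genes for 4 and 3 of 25. These are 33.3, 22.6 and 28% of the lists, against 30.4% of all genes. The proteasome count above 0 became 1 without genistein 10 µM replicate 2. The signs of these last 3 medians changed in 3, 1 and 11 settings. Oestrogen targets were called above 0 for 5 of 11 and below for 3, a share of 72.7%, with 1 below when genistein 10 µM replicate 2 was left out, and targets of the aryl hydrocarbon receptor for 0 and 2 of 5.

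By gene type, the interaction was called for 32.2% of 12668 protein-coding genes, 27.9% of 1959 lncRNAs and 15.7% of 931 pseudogenes, types being those of GENCODE 29. In the CPM means, 10 called genes (0.199%) had a difference of steps of the other sign than the fitted one. Among the libraries, the first principal component held 57.0% of the variance and the second 12.5%. Gene loadings of the second correlated with GC content at r = 0.58 across genes, the genistein step at -0.27, the baicalein step at -0.03 and the interaction at -0.12. These are descriptions across genes that are not independent.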
